A study of Mus musculus with 8 samples.

Results

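A set of 50 mitosis and cell division genes was followed through RNA-seq of cells sorted from mouse skin. The genes were chosen by symbol, 50 of the 24755 genes listed in either of 2 tables. All 50 were found in both tables, of which the table of hair follicle stem cells (HFSCs) lists 23861 genes and that of epidermal stem cells (EpdSCs) lists 16231. Each cell type had 2 wild-type (WT) libraries and 2 libraries labelled Msx2-KO, 8 in all. HFSCs were sorted from dorsal skin as CD34+CD49f+Sca-1- and EpdSCs as CD34-CD49f+Sca-1+, with every mouse labelled as in telogen, the resting phase of the hair cycle, and untreated. WT HFSCs came from mice of 2 months, and Msx2-KO HFSCs and both EpdSC groups came from mice of 6 months. Age and genotype therefore cannot be told apart in HFSCs. The library names also differed by genotype, in prefix in HFSCs and in number range in EpdSCs. What these names mark is not stated, and it cannot be told apart from genotype in either cell type. The WT mice were hair cycle-matched C57BL/6J animals, and the Msx2 allele carries a neo cassette upstream of exon 2 throughout the body, being a germline knockout.

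The label was checked first against Msx2, the transcription factor that was targeted. In HFSCs it had 53 and 7 counts in the WT libraries against 40 and 18 in the pair labelled Msx2-KO, and in EpdSCs its normalized values were 58.5 and 85.4 against 150 and 22.2. The log2 fold changes were −0.20 (SE 1.23) in HFSCs and −0.27 (SE 1.10) in EpdSCs. RNA counted over the whole gene did not separate the genotypes, and such counts cannot tell one exon from another. Library totals ran from 3132974 to 11016659 estimated counts in HFSCs, and 3 counts, the floor used here, were worth 0.327 to 0.970 CPM (counts per 1000000, scaled by TMM). The mitochondrial ribosomal RNAs mt-Rnr1 and mt-Rnr2 took 8.94% and 36.3% of the WT HFSC libraries and 49.4% and 53.2% of those labelled Msx2-KO. In EpdSCs they took 23.5% and 16.4% of the WT libraries against 0.073% and 6.18% of those labelled Msx2-KO. Log2 levels of the 2 HFSC libraries labelled Msx2-KO correlated at 0.626 over genes, below the 0.941 of the WT pair, and in EpdSCs the values were 0.844 and 0.952. The HFSC markers Krt15 and Lhx2 were present in each HFSC library and Krt5 and Krt14 in each EpdSC library. All of these genes also had values in every library of the other cell type, so their presence does not tell the sorted cells apart. Cd34 was not among the EpdSC rows. The labels do not say whether replicates were separate animals, so the p-values measure the spread between these libraries.

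Mitosis is the stage at which duplicated chromosomes are condensed, attached to the spindle through their kinetochores, and pulled apart before the cell divides. Cyclin B with Cdk1 drives entry, the spindle checkpoint delays separation until every kinetochore is attached, and the anaphase-promoting complex then marks cyclins and securin for destruction. Bulge HFSCs are mostly quiescent in telogen, while basal cells of the interfollicular epidermis divide throughout life to replace the layers above them. Many genes of this stage are transcribed together late in the cell cycle, from promoters that carry a cell cycle homology region (CHR), bound by the DREAM and MuvB complexes, and CCAAT boxes, bound by NF-Y.

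The promoters of the set are shown because they share letters that the choice by symbol did not use. RefSeq promoters of GRCm38.p6, from 250 bases before to 50 bases after the start, were at hand for 42 of the 50 genes, as 45 sequences. A CHR, searched on both strands as TTTGAA or TTTAAA, was in 37 of them (82.2%), against 27.6% of all 32851 promoters of the same length. The TTTGAA form alone was in 75.6% against 17.9%, and CCAAT in 73.3% against 37.4%. Both motifs stood together in 31 of the 45 (68.9%), against 10.7% of all promoters. The E2F letters TTCCCGC or TTGGCGC were in 22.2% against 6.81%, and TATAAA was in 1 (2.22%) against 13.6%. TTTAAA reads the same on both strands, and none of these motifs was tested as a binding site.

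Stretches of sequence just before the start are printed for 4 genes with an unadjusted edgeR p under 0.05 in HFSCs, which are not the 4 of smallest p. Each stretch held a CHR and lay outside the GENCODE gene model. Other members, among them Cenpf (unadjusted edgeR p 0.0021) and Nuf2 (0.00706), had a smaller p than Ect2 (0.0276) and are not printed. The stretches run 5′ to 3′ on the gene's own strand, and capitals mark the CHR and the CCAAT box, read on either strand.
Top2a: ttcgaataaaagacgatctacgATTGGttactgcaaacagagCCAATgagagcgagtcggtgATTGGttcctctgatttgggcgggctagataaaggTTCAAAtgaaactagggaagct
Mki67: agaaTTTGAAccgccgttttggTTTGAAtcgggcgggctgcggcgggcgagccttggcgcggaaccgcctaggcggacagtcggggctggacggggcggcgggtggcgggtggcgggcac
Kif11: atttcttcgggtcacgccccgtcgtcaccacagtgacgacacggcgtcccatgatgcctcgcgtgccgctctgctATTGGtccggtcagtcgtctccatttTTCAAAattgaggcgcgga
Ect2: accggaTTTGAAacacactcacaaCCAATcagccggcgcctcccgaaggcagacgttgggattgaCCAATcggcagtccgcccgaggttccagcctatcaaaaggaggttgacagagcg
The Top2a stretch lies at chr11:99024191-99024309 on the minus strand, with its CHR beginning 23 bases before the start and 3 CCAAT boxes from 98 to 58 bases before it. The Mki67 stretch lies at chr7:135716380-135716499 on the minus strand, with 2 CHRs beginning 116 and 98 bases before the start and no CCAAT in these letters. The Kif11 stretch lies at chr19:37376262-37376381 on the plus strand, with a CHR 19 and a CCAAT box 45 bases before the start. The Ect2 stretch lies at chr3:27153880-27153998 on the minus strand, with a CHR 114 and CCAAT boxes 96 and 55 bases before the start.

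In HFSCs, most of the set stood higher in the libraries labelled Msx2-KO, but no single gene passed the adjusted test. The set took 0.0713% and 0.0771% of nuclear protein-coding counts in the WT libraries and 0.436% and 0.324% in those labelled Msx2-KO. The share without Mki67, the member with the most counts in the pair labelled Msx2-KO, was 0.0654% and 0.0688% against 0.329% and 0.262%. Of 49 genes tested, 45 had a log2 fold change above 0, with a median of 2.85, against 45.4% and a median of −0.14 over the 14422 genes that entered the test. Both libraries labelled Msx2-KO were above both WT libraries for 32 genes, where the background was 17.5% of all genes, and below for 2, where it was 33.5%. At an unadjusted p under 0.05 with a fold over 2, 21 genes were higher and 0 lower, against a background of 5.02% and 12.2%. At an adjusted p under 0.05, edgeR's quasi-likelihood test called 0 of the 49 genes in either direction, as it called 0% of all genes. DESeq2 called 10 of them higher (background 2.24%), limma-trend 3 (background 1.1%), and they called 0 lower, where the background was 2.43% and 8.66%. Without replicate 1 or 2 of the pair labelled Msx2-KO, edgeR called 31 and 33 higher (background 15.1% and 17.3%) and 1 and 2 lower (background 21.5% and 41.8%), with the spread then taken from the WT pair alone. Without WT replicate 1 or 2 it called 1 and 2 higher (background 0.607% and 0.585%) and 0 lower (background 0.432% and 0.211%). In bulk RNA, more cells in mitosis and more of these transcripts in each cell cannot be told apart.

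**Figure D1:**
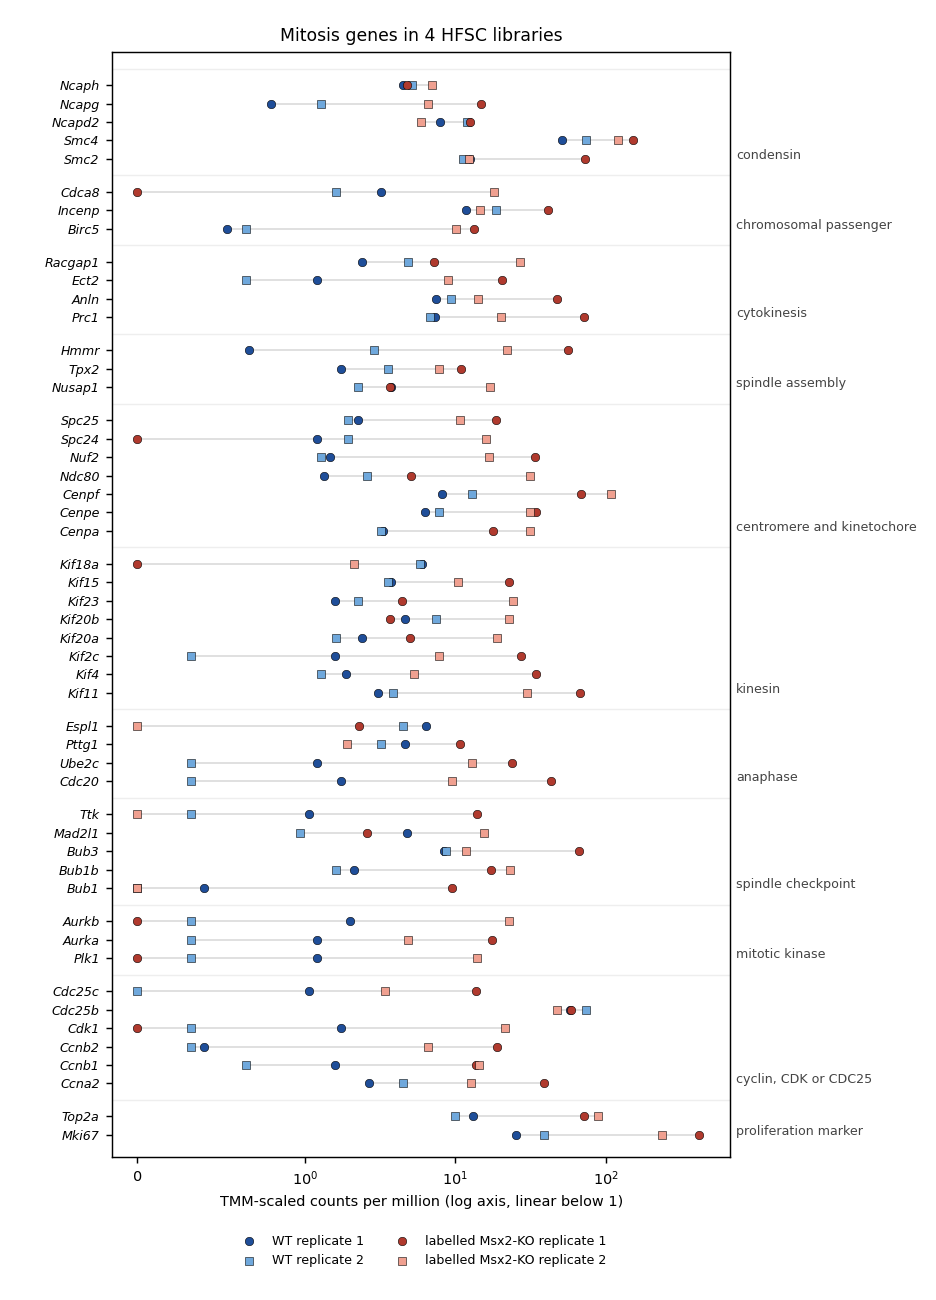
Level of each of the 50 genes in the 4 HFSC libraries, as TMM-scaled CPM on a log axis that is linear below 1, with genes grouped by role and 1 point per library. The red points lie to the right of the blue ones for 32 genes of 49 tested, and 6 genes are at 0 in Msx2-KO replicate 1 and 3 in replicate 2.

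Mki67 encodes Ki-67, which coats mitotic chromosomes, and Top2a encodes the topoisomerase that untangles DNA before chromosomes separate. Mki67 was at 25.4 and 39.1 CPM in WT HFSCs and at 419.6 and 236 in those labelled Msx2-KO, from 190, 121, 3852 and 1114 counts. Its log2 fold change was 3.35 (SE 0.45). Top2a was at 13.1 and 10.02 against 71.5 and 88.9 CPM, a log2 fold change of 2.79 (SE 0.34) that gave the smallest unadjusted p of the set, 0.00108. Both genes had an adjusted p of 0.143 by edgeR with Benjamini-Hochberg adjustment, and their groups did not overlap. Under the 8 alternative settings that kept all libraries, the adjusted p of Top2a ran from 0.000403 to 0.212 and that of Mki67 from 8.6e-10 to 0.212.

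Among cyclins and their kinases, Ccna2, the S and G2 phase cyclin, was at 2.67 and 4.53 against 38.7 and 12.7 CPM. Ccnb1, the partner of Cdk1 at mitotic entry, was at 1.6 and 0.647 against 13.7 and 14.4. The highest fitted value of the set was that of Ccnb2 (5.05, SE 1.36), which rested on 3 and 1 WT counts against 175 and 31. Cdk1 itself was split, with 13 and 1 counts for WT against 0 and 101 (log2 3.30, SE 2.91). Cdc25b, the phosphatase that activates Cdk1, overlapped, at 58.1 and 74.0 against 58.5 and 47.8 CPM (log2 −0.31, SE 0.29). Of the 6 genes of this role, 4 were above both WT libraries (background 17.5%).

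Among the 3 mitotic kinases, Plk1 and Aurkb were split between the replicates in the same way, and Aurka was not. Plk1, which acts at centrosomes and kinetochores, had 9 and 1 counts for WT against 0 and 66. Aurkb, the kinase of the chromosomal passenger complex, had 15 and 1 against 0 and 107. Aurka, which matures the spindle poles, did not overlap, at 9 and 1 counts against 162 and 23 (log2 3.80, SE 1.49). Plk1 and Aurkb had log2 fold changes of 3.12 and 3.22 with SEs of 2.83 and 2.91, at unadjusted edgeR p of 0.330 and 0.329.

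Genes at 0 were not the same ones in the 2 libraries. Replicate 1 lacked Cdk1, Plk1, Aurkb, Spc24, Cdca8 and Kif18a, which had 101, 66, 107, 75, 86 and 10 counts in replicate 2. Replicate 2 lacked Bub1, Ttk and Espl1, which had 87, 128 and 21 counts in replicate 1. Of the 11804 nuclear protein-coding genes in both tables, 2833 were at 0 in replicate 1 and 1703 in replicate 2, against 50 and 250 in the WT libraries. Bub1 did not reach the count filter and was not tested.

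Of the spindle checkpoint, Bub1b was at 2.14 and 1.62 against 17.2 and 23.1 CPM (log2 3.40, SE 0.85, unadjusted p 0.0148). Bub3, which recruits Bub1 and Bub1b to kinetochores, was at 8.41 and 8.73 against 66.3 and 11.9 (log2 2.19, SE 0.96, and 0.45 without replicate 1 of the pair labelled Msx2-KO). Mad2l1, the checkpoint's inhibitor of Cdc20, overlapped, at 4.81 and 0.970 against 2.61 and 15.5. Cdc20, the activator of the anaphase-promoting complex, was at 1.74 and 0.323 against 43.0 and 9.55 (log2 4.56, SE 1.36), and Ube2c, its ubiquitin-conjugating enzyme, at 1.20 and 0.323 against 23.7 and 12.9 (log2 4.48, SE 1.19). The securin gene Pttg1 overlapped (log2 0.68, SE 1.37), and Espl1, the separase, was one of the 2 genes below both WT libraries, with 48 and 14 counts against 21 and 0.

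Kinesins are motors that build the spindle and the midzone. Kif11, which slides spindle poles apart, was at 3.07 and 3.88 against 67.9 and 29.9 CPM (log2 3.82, SE 0.65, unadjusted p 0.00362). Kif23, of the central spindle, was at 1.6 and 2.26 against 4.47 and 24.4 (log2 2.89, SE 1.32). Of the 8 kinesins 6 were above both WT libraries (background 17.5%), and the median log2 fold change of the role was 2.73. Kif20b overlapped, and Kif18a was below at 45 and 18 counts against 0 and 10 (log2 −2.49, SE 2.26).

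At centromeres and kinetochores, Cenpf was at 8.14 and 12.9 against 68.4 and 109 CPM, with a log2 fold change of 3.08 (SE 0.45) and an unadjusted p of 0.0021. Cenpe, a kinetochore motor, was at 6.27 and 7.76 against 34.2 and 31.6 (log2 2.23, SE 0.51). Ndc80, the microtubule-binding core, was at 1.33 and 2.59 against 5.12 and 31.4 (log2 3.22, SE 1.33). Each of the 7 genes of this role was above 0 (background 45.4%), and 6 were above both WT libraries (background 17.5%). The exception was Spc24, with 0 counts in replicate 1.

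The remaining roles were less uniform. Tpx2, a spindle assembly factor that activates Aurora A, was at 1.74 and 3.56 against 10.9 and 7.85 CPM (log2 1.83, SE 1.14). In cytokinesis, Prc1, which bundles midzone microtubules, was at 7.34 and 6.79 against 71.8 and 20.2 (log2 2.70, SE 0.78), and Anln, of the contractile ring, at 7.48 and 9.37 against 47.8 and 14.2 (log2 1.88, SE 0.79). All 4 cytokinesis genes were above both WT libraries (background 17.5%). Of the chromosomal passenger genes, Birc5, survivin, had 4 and 2 counts against 122 and 48 (log2 4.28, SE 1.19), whereas Incenp, its scaffold, overlapped (log2 0.89, SE 0.72). Condensins, which compact chromosomes, had the lowest median of the roles (1.12). Smc4, the highest of them per length, was at 51.3 and 73.7 against 152 and 120 (log2 1.12, SE 0.31), Smc2 at 12.5 and 11.3 against 73.4 and 12.3 (log2 1.85, SE 0.95, and 0.015 without replicate 1 of the pair labelled Msx2-KO), and Ncapd2 at 7.88 and 12.0 against 12.6 and 5.94 (log2 −0.09, SE 0.92).

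Markers of other skin compartments also stood apart between these libraries, and their part in the result was not tested. All 7 measured sebaceous gland markers were above both WT libraries in both libraries labelled Msx2-KO (background 17.5%). The summed share of nuclear protein-coding counts of the 5 found in both tables went from 0.00926% and 0.00788% to 0.350% and 0.265%. The 4 infundibulum markers went from 0.0338% and 0.0520% to 0.366% and 0.315%. Of 8 suprabasal markers, 7 were above both WT libraries (background 17.5%), with summed shares of 0.0454% and 0.0466% against 0.213% and 0.839%. HFSC markers were at 2.10% and 1.80% against 1.12% and 1.25%, with 8 of 9 below both WT libraries (background 33.5%). The summed share of the 4 immune markers found in both tables was 0.00234% and 0.00103% against 0.00511% and 0.00274%. The defining marker Ptprc was at 0 in both libraries labelled Msx2-KO, against 23 and 9 counts in WT. Of the fibroblast markers, Pdgfra (25 and 3 counts in WT) and Pdgfrb (5 and 1) were at 0 in that pair. Col1a1 had 91 and 67 counts in WT against 65 and 33, and Col1a2 242 and 128 against 183 and 25.

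In EpdSCs, 5 of the 50 genes rose in the libraries labelled Msx2-KO, while others stood lower, among them Mki67, and the set did not share a direction. Values here are the authors' normalized counts, and fold changes are on the log2(value + 1) scale, which understates the change of low genes. Its share of nuclear protein-coding counts was 0.129% and 0.114% for WT against 0.222% and 0.245%. The log2 fold change was above 0 for 35 genes (background 40.3%) and below for 15, with a median of 1.22 against −0.64 over all 16231 genes. Both libraries labelled Msx2-KO were above both WT libraries for 27 genes (background 27.8%) and below for 11 (background 44.5%). With limma and Benjamini-Hochberg adjustment, 5 genes passed the test upwards (background 1.57%) and 0 downwards (background 7.78%). At an unadjusted p under 0.05 with a fold over 2, 20 were higher and 5 lower, against 12.2% and 23.1%. edgeR, run on counts recovered from the steps of the values, called 0 of the 50 and 0% of all genes, and limma called 0 of them, and 0% of all genes, when either WT library was left out. Without replicate 1 or 2 of the pair labelled Msx2-KO, where the WT pair alone gives the spread, limma called 18 and 24 higher (background 12.9% and 23.1%) and 5 and 7 lower (background 24.7% and 40.9%).

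**Figure D2:**
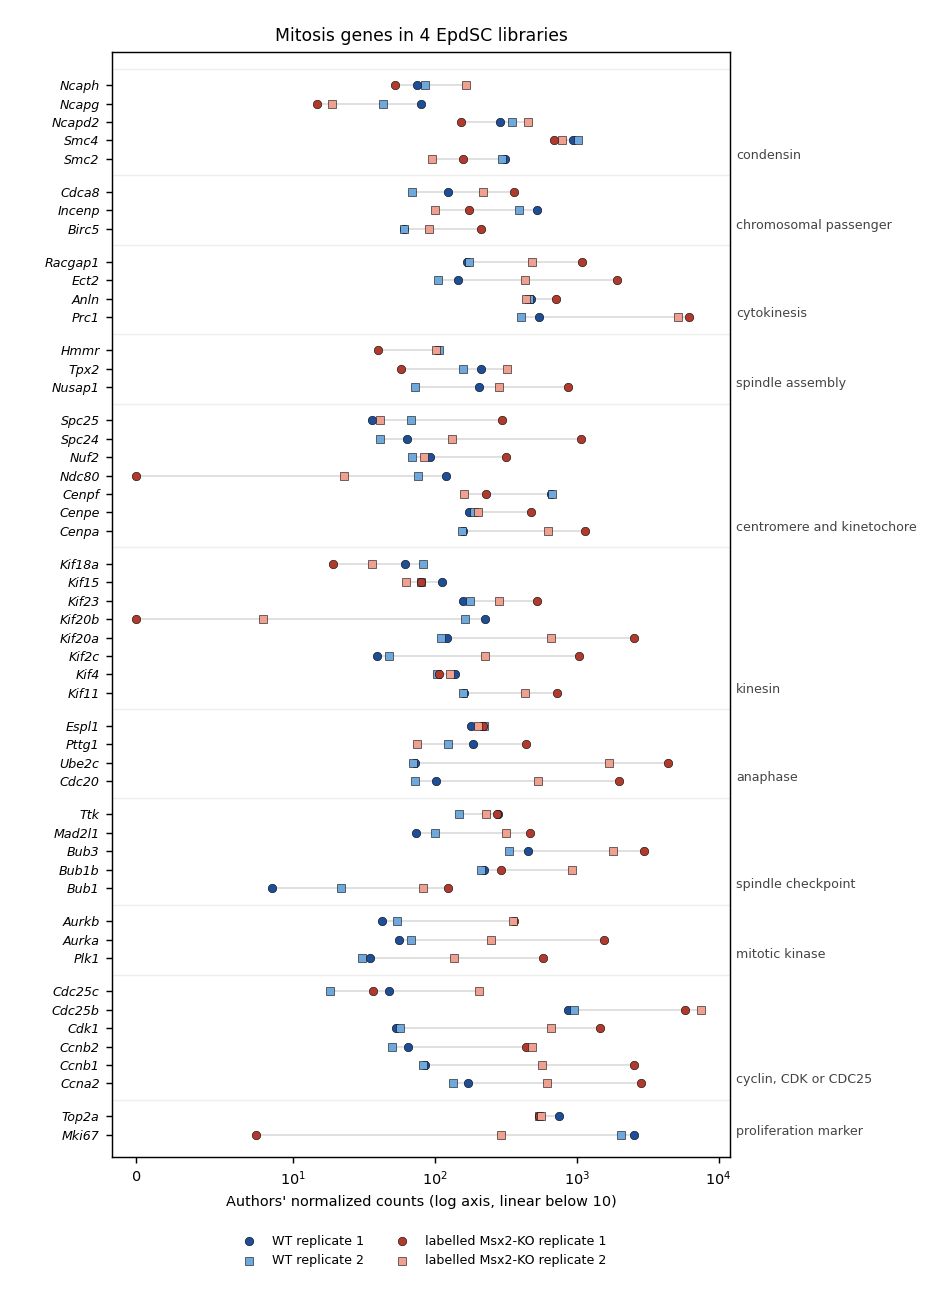
Normalized count of each of the 50 genes in the 4 EpdSC libraries, on a log axis that is linear below 10, with genes grouped by role and 1 point per library. Red points lie to the right of blue ones for 27 genes, among them Ube2c and Prc1, and to the left for 11, among them Mki67 and Cenpf.

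The genes that rose were Ube2c, Prc1, Cdk1, Ccnb2 and Aurkb, and in each the groups did not overlap. Ube2c (chr2:164769898-164778823) was at 72.6 and 70.2 for WT against 4434 and 1678, with a log2 fold change of 5.24 (SE 0.68, limma adjusted p 0.0335). Prc1 (chr7:80294450-80316260) was at 544 and 406 against 6153 and 5145 (log2 3.58, SE 0.49, limma adjusted p 0.0360). Cdk1 (chr10:69335146-69352939) was at 53.1 and 56.9 against 1455 and 655 (log2 4.13, SE 0.62, limma adjusted p 0.0416). All 3 genes lie in GRCm38, as do the next 2. Ccnb2 (chr9:70407692-70421548) was at 63.9 and 49.3 against 439 and 479 (log2 3.01, SE 0.48, limma adjusted p 0.0457). Aurkb (chr11:69045647-69051665) was at 42.2 and 54.1 against 362 and 353 (log2 2.88, SE 0.48, limma adjusted p 0.0487). Over the 8 alternatives that kept all libraries the adjusted p ran from 0.0255 to 0.0604 for Ube2c, from 0.0354 to 0.0621 for Prc1, from 0.0331 to 0.0604 for Cdk1, from 0.0386 to 0.0850 for Ccnb2 and from 0.0401 to 0.0911 for Aurkb. Of the 50 genes 16 overlap another gene, Ube2c with Tnnc2, Prc1 with Rccd1, Cdc20 with Elovl1, Cdc25b with Spef1 and Ccna2 with Exosc9 on the opposite strand, and the sources used here do not give the strand setting of the counting, so these values are less certain.

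Mki67 went the other way. It was at 2517 and 2055 in WT EpdSCs against 7.64 and 294, giving a log2 fold change of −5.49 (SE 1.90) that missed the threshold at a limma adjusted p of 0.138. Its groups were far apart, and the pair labelled Msx2-KO differed widely. Top2a was at 743 and 543 against 544 and 558, which overlapped (log2 −0.20, SE 0.49).

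The other 4 genes of the cyclin and Cdk1 role had log2 fold changes above 0 without passing the test. Ccnb1 was at 84.8 and 81.6 against 2521 and 570 (log2 3.83, SE 0.90, limma adjusted p 0.0805) and Ccna2 at 171 and 134 against 2846 and 612 (log2 3.12, SE 0.93). Cdc25b was at 865 and 948 against 5752 and 7538, a log2 fold change of 2.86 (SE 0.48) at a limma adjusted p of 0.0501, just outside the threshold. Cdc25c, a phosphatase of the same family, overlapped, at 47.1 and 18.3 against 36.2 and 204 (log2 1.52). Of the kinases, Plk1 was at 34.7 and 30.4 against 574 and 136 (log2 3.07, SE 0.88) and Aurka at 55.2 and 67.3 against 1562 and 249.4 (log2 3.34, SE 1.07). Replicate 1 was the higher of the pair labelled Msx2-KO in each of these but Cdc25b and Cdc25c.

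The checkpoint genes were above 0 in all 5 cases (background 40.3%), and 4 were above both WT libraries (background 27.8%). Bub3 was at 453 and 331 against 2981 and 1807 (log2 2.58, SE 0.55, limma adjusted p 0.0699), Mad2l1 at 73.7 and 100.5 against 467 and 314 (log2 2.14, SE 0.53), and Bub1b at 222.04 and 212 against 292 and 921 (log2 1.25, SE 0.75). Cdc20 was at 100.7 and 72.1 against 1974 and 534 (log2 3.58, SE 0.84, limma adjusted p 0.0804). Pttg1 overlapped, at 186 and 123 against 441 and 74.1.

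Kinesins and kinetochore genes diverged within their roles. Kif11 was at 159 and 157 against 726 and 432 (log2 1.82, SE 0.53) and Kif23 at 158 and 176 against 525 and 281 (log2 1.20, SE 0.56). Kif20b, a kinesin of late cytokinesis, was at 226 and 162 against 0 and 8.09, which was the lowest fitted value of the set (log2 −6.00, SE 1.25, limma adjusted p 0.0675). Among kinetochore genes, Cenpa, the centromeric histone, was at 157 and 155 against 1151 and 630 (log2 2.44, SE 0.56), and Cenpe at 174 and 189 against 472 and 202 (log2 0.77, SE 0.64). Cenpf was at 662 and 664 against 229 and 161 (log2 −1.78, SE 0.49), and Ndc80 at 120 and 75.9 against 0 and 22.9 (log2 −4.30, SE 1.74). So Cenpf and Ndc80 were below and Cenpa and Cenpe above in both libraries labelled Msx2-KO, none past the adjusted threshold.

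Of the last roles, Tpx2 overlapped, at 210 and 157 against 57.3 and 321 (log2 −0.41, SE 1.02), and so did Anln, at 471 and 457 against 713 and 441 (log2 0.27, SE 0.52). Birc5 was at 60.7 and 60.7 against 211 and 91.0 (log2 1.18, SE 0.63), whereas Incenp was at 527 and 394 against 175 and 99.1 (log2 −1.79, SE 0.57). Condensins had a median of −0.40, with Smc2 at 310 and 298 against 157 and 95.0 (log2 −1.31, SE 0.53), Smc4 at 936 and 1017 against 690 and 789 (log2 −0.40, SE 0.47) and Ncapd2 at 287 and 346 against 151 and 451 (log2 −0.27, SE 0.74). Subunits of the passenger complex had values on both sides of 0.

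Marker levels also differed between the EpdSC groups, and their part in the result was not tested. Each of the 8 suprabasal markers was below 0, where 40.3% of all genes were above 0, and 5 were below both WT libraries (background 44.5%). Their summed shares were 3.09% and 2.23% for WT against 0.490% and 0.724%, and Sbsn and Ivl were called lower (background 7.78%). Interfollicular basal markers were at 2.41% and 2.88% against 4.79% and 4.80%, with 6 of 8 above both WT libraries (background 27.8%) and Itgb4 below (background 44.5%). The immune markers Cd207 and Cd3e were at 0 in both libraries labelled Msx2-KO. In WT, Cd207 was at 20.6 and 2.85 and Cd3e at 47.7 and 0.948, so in replicate 2 neither was above the floor of 3 counts. The summed share of the 5 sebaceous gland markers was 0.0394% and 0.0472% against 0.109% and 0.0849%, carried by Scd1 at 3585 and 4465 against 23465 and 9990, while 3 of the 5 were below 0 and their median log2 fold change was −2.28. HFSC markers were at 0.909% and 1.10% against 1.42% and 1.83%, with 5 of 8 above both WT libraries (background 27.8%). Of these, Postn was called higher (log2 4.32, limma adjusted p 0.0281, background 1.57%). The 4 infundibulum markers were at 0.0566% and 0.0563% against 0.0190% and 0.0108%, with 3 of them below both WT libraries (background 44.5%).

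Set side by side, 18 genes were above both WT libraries in both cell types (background 5.68% of the 13151 genes tested in both), among them Ccna2, Ccnb1, Ccnb2, Cdc20, Ube2c, Kif11, Prc1 and Birc5. Kif18a was below in both (background 15.3%). Another 7 genes were above in HFSCs and below in EpdSCs (background 7.97%), namely Mki67, Kif15, Cenpf, Ndc80, Smc4, Ncapg and Hmmr, and 0 genes had the reverse order (background 8.58%). Cdk1, Cdc25b, Plk1, Aurkb, Bub1, Mad2l1, Spc24, Nusap1 and Cdca8 were above in EpdSCs and overlapped in HFSCs (background 14.1%). The difference between cell types was not tested, since the tables are in different units and were normalized separately.

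**Figure D3:**
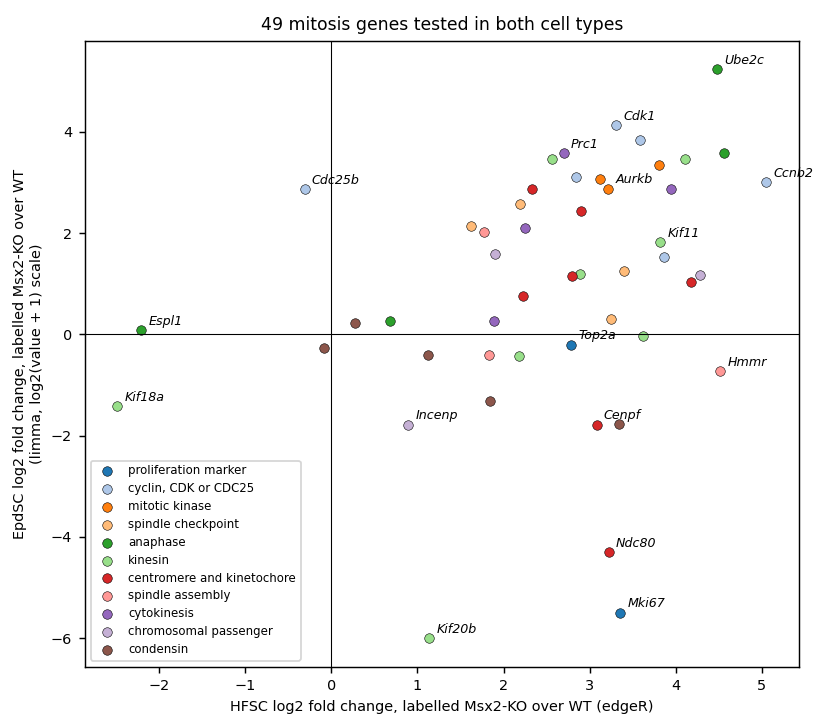
Log2 fold change of 49 genes in HFSCs (horizontal, edgeR) and in EpdSCs (vertical, limma on log2(value + 1)), coloured by role. Most genes lie in the upper right, while Mki67 (3.35 and −5.49), Ndc80 (3.22 and −4.30) and Kif20b (1.14 and −6.00) lie in the lower right.

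Levels between genes were compared per base of the longest coding transcript, as a percentile among the 11804 nuclear protein-coding genes of a library. Mki67 stood at percentiles 32.8 and 45.9 in WT HFSCs and 96.1 and 92.1 in those labelled Msx2-KO, but at 77.2 and 71.9 in WT EpdSCs and 14.5 and 28.8 in those labelled Msx2-KO. Top2a stood at 32.7 and 27.4 against 81.1 and 87.3 in HFSCs, and between 49.8 and 59.7 in all 4 EpdSC libraries. Ube2c stood at 8.44 and 4.30 against 75.1 and 58.6 in HFSCs, and at 23.2 and 22 against 94.3 and 91.1 in EpdSCs. These 3 genes, all most abundant late in the cell cycle, had the same order in HFSCs, whereas in EpdSCs Mki67 was below, Top2a overlapped and Ube2c was above.

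In EpdSCs the log2 fold changes of the set went with transcript length. Of the 28 genes under 3500 bases, 25 were above 0, with a median log2 fold change of 2.51, where all genes of that length had a median of −0.18. Of the 22 genes of 3500 bases or more, 10 were above 0, with a median of −0.12, where all genes of that length had −0.42. The shorter genes took 0.0473% and 0.0409% of nuclear protein-coding counts for WT against 0.168% and 0.183%, and the longer ones 0.0821% and 0.0733% against 0.0537% and 0.0621%. The longest genes were lower in general, as all genes of 7000 bases or more had a median of −0.93, with 29.1% above 0. Of the 4 members in that range, Mki67 and Cenpf among them, 2 were above 0, with a median of −0.51. Spearman's rho between length and log2 fold change was −0.48 over the 50 genes and −0.06 over 12169 genes. In HFSCs it was −0.27 over 49 genes and −0.13 over all, with medians of 2.90 and 2.40 for the shorter and longer members. These correlations are across genes of the same 4 libraries and carry no test. The part of the mitochondrial ribosomal RNA shares given above was not tested. Ndc80, at 2201 bases, was low in EpdSCs despite its length, and Mad2l1, at 7557 bases, was high.

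**Figure D4:**
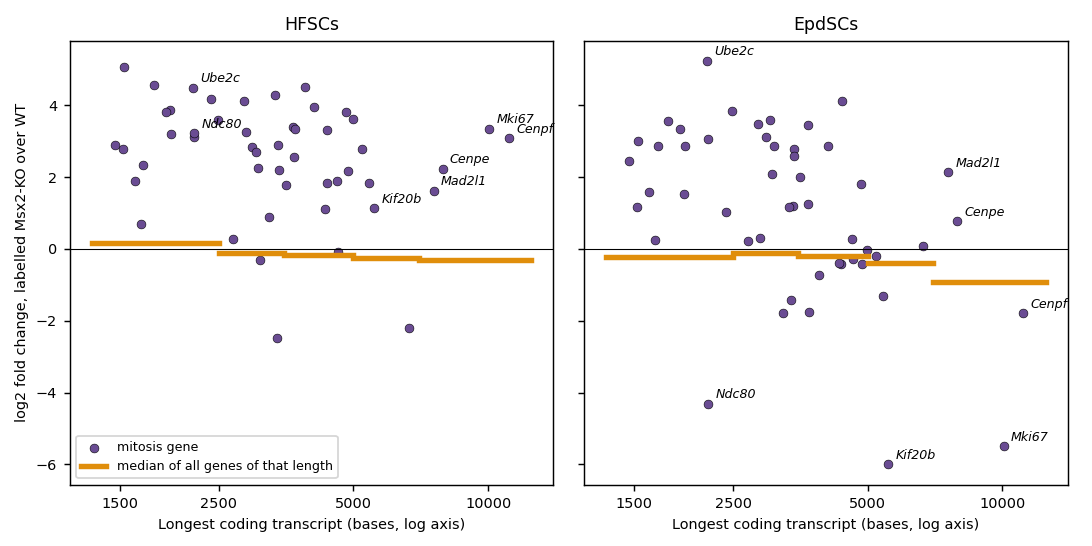
Log2 fold change of each gene against the length of its longest coding transcript in bases (log axis), in HFSCs on the left and EpdSCs on the right, with bars for the median of all genes in each length range. In EpdSCs the short genes lie mostly above 0 and genes of 3500 bases or more are spread from −6.00 to 4.13, whereas in HFSCs both lie mostly above 0.

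**Figure D5:**
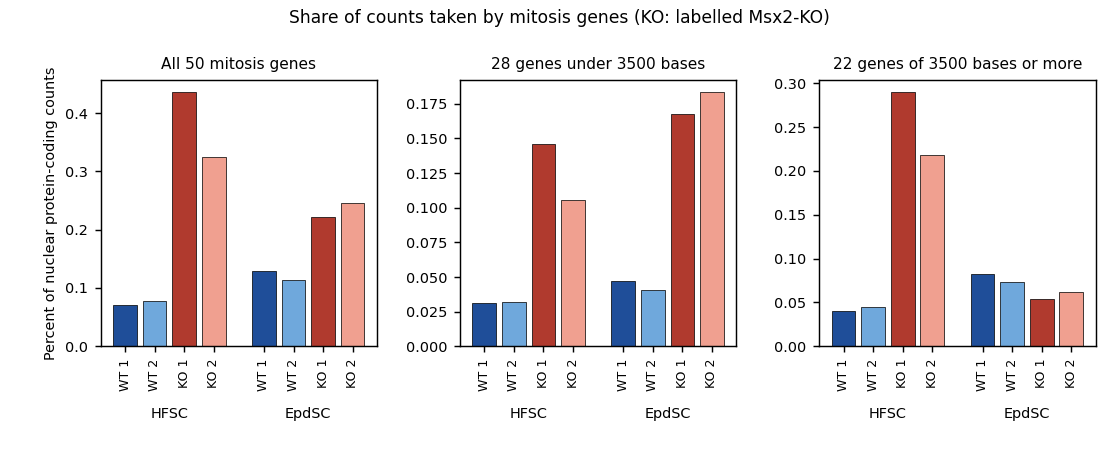
Share of nuclear protein-coding counts taken by the 50 genes, by the 28 under 3500 bases and by the 22 of 3500 bases or more, with 1 bar per library, axes from 0 and a scale of its own in each panel. The longer genes are higher in HFSC libraries labelled Msx2-KO and lower in EpdSC libraries labelled Msx2-KO than in WT.

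Other genes of the pathway, from lists chosen by function, had medians nearer to 0. Of 78 further mitosis genes, 66 were tested in HFSCs, with a median log2 fold change of 0.68 and 0 called by edgeR. At an unadjusted edgeR p under 0.05 with a fold over 2, 10 were higher and 3 lower (background 5.02% and 12.2%). In EpdSCs the median of the 78 genes was 0.41, with 0 called by limma. At an unadjusted limma p under 0.05 with a fold over 2, 11 of the genes were higher and 7 lower (background 12.2% and 23.1%). Many of these, such as subunits of the anaphase-promoting complex, are made throughout the cell cycle. Of 13 cohesin genes, whose products hold sister chromatids together, the medians were −0.18 and −0.51. Smc1a was the one called, lower in EpdSCs, where the background called lower was 7.78% of all genes. The transcription factors of the cell cycle had medians of 0.25 and 0.71, with the highest value in HFSCs in Foxm1 (3.70) and in EpdSCs in E2f1 (2.84). Genes of G1 and S phase entry had medians of 0.67 and 0.18, with 0 called in either cell type. At an unadjusted p under 0.05 with a fold over 2, edgeR gave 0 higher and 2 lower of 27 tested in HFSCs (background 5.02% and 12.2%). In EpdSCs limma gave 5 higher and 0 lower of 31 (background 12.2% and 23.1%). In both cell types the median of the 50 genes lay above those of these 4 lists, which is a description and was not tested.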

How the data were processed

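Bulk RNA-seq was measured in 8 libraries, 2 per group, with conditions taken from the sample labels. Stranded libraries of total RNA had been made by the authors, with STAR (2.7.3a in the submitters' processing notes) for alignment to GRCm38/mm10 and Partek for counts over GENCODE M25 genes. The deposited HFSC table holds estimated counts, of which 71.5% to 90.1% per library are whole within 0.02. The deposited EpdSC table holds a normalized signal, each value a count divided by 1 factor per library, so that 1 count is worth 0.674 to 1.27 and the recovered totals are 15213662 to 21092705 counts. The authors' own comparison files, with p-values, ratios and fitted means, were not used. The number of unmapped value columns was 0.

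HFSC counts were rounded and tested with edgeR 4.0.16 (TMM, filterByExpr, quasi-likelihood) in R 4.3.3. EpdSC values were tested as log2(value + 1) with limma 3.58.1 and no filter. Calls required a fold over 2 and an adjusted p under 0.05 (Benjamini-Hochberg, over all genes of a table). An exact two-sided permutation of 2 against 2 libraries cannot go below 0.333 and was not used. Alternatives were DESeq2 1.42.0, limma-trend, other scalings, filters and pseudocounts, a replicate block, and each library left out. The fitting code was run on simulated data with less spread between libraries than the dispersion of 0.823 estimated for the HFSC counts. That run therefore does not show how many changed genes the test would find in HFSCs. Full statistics are given for 27 members chosen for their roles, for members called and for the 3 smallest p in each cell type; list genes are named only if called, extreme in their list or a defining marker; other members named by value were picked after their values were seen. Sequences were taken from RefSeq. The members and lists were chosen with earlier results of these data known.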

Additional observations from a re-analysis of the deposited data

Results flagged for a closer look

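7 genes were above both WT libraries in the HFSCs labelled Msx2-KO and below both WT libraries in the EpdSCs labelled Msx2-KO. The difference between the cell types was not tested for any of them, because the tables have different units. The log2 fold changes in EpdSCs and HFSCs were −5.49 and 3.35 for Mki67, −4.30 and 3.22 for Ndc80, −1.78 and 3.08 for Cenpf, −1.76 and 3.35 for Ncapg, −0.73 and 4.52 for Hmmr, −0.42 and 2.18 for Kif15, and −0.40 and 1.12 for Smc4. edgeR in HFSCs and limma in EpdSCs called none of the 7 at an adjusted p under 0.05, whereas in HFSCs DESeq2 called Mki67, Cenpf and Hmmr higher, and limma-trend and the replicate block called Mki67 and Cenpf.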

How the results depend on the processing

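In HFSCs the count of members called higher, 0 with edgeR, was 10 with DESeq2, 3 with limma-trend and 4 with the replicate block (of 145 genes called higher), and it ran from 1 to 33 when 1 library was left out. The high counts, 31 and 33, came without Msx2-KO replicate 1 and 2, where the spread rests on the WT pair alone, and there 1 and 2 members were called lower. The median of 2.85 was 2.26 with at least 10 counts in every library, 1.96 with library totals, 2.16 with limma-trend, 2.28 with the block and 2.59 to 2.88 with 1 library left out. Library totals moved the median of all genes from −0.14 to −1.0, and the members stood 2.96 above it, against 2.99. In EpdSCs the 5 members called higher became 7 with limma trend and with a pseudocount of 10 (adding Cdc25b and Bub3), 0 with edgeR, 3 with library totals (Cdk1, Prc1 and Ube2c), 2 without mitochondrial and ribosomal RNA, 2 with a pseudocount of 0.1, 1 with the replicate block (Ube2c), 0 without either WT library, and 18 and 24 without Msx2-KO replicate 1 and 2. The count called lower was 1 (Kif20b) with a pseudocount of 10 (of 1354 genes called lower) and with the block (of 1093). The median of 1.22 was 0.69 without mitochondrial and ribosomal RNA, where that of all genes went from −0.64 to −1.14, so the members stood 1.83 above it against 1.86, and 1.13 to 1.87 with 1 library left out. Leaving out Msx2-KO replicate 1 moved the fold of 35 of 48 HFSC members by over 1.5 times (22 of them down), and leaving out replicate 2 moved 21 of 46. In EpdSCs each moved 25 of 50. Directions reversed for a few members. In HFSCs, leaving out 1 library gave −6.14 to 5.04 for Aurkb and −0.27 to 3.19 for Mad2l1 (lowest without Msx2-KO replicate 2), −0.056 to 1.48 for Incenp and −1.09 to 1.40 for Pttg1 (lowest without Msx2-KO replicate 1), and −0.74 to 0.37 for Ncapd2 (also 0.14 without WT replicate 2), while Pttg1 was −0.14 with library totals and Ncapd2 0.0038 with at least 10 counts. In EpdSCs it gave −0.43 to 0.022 for Top2a, −1.65 to 0.82 for Tpx2, −0.074 to 0.62 for Anln, −1.05 to 0.52 for Ncapd2 and −1.02 to 1.53 for Pttg1, while Tpx2 was 0.27 and Ncapd2 0.11 with edgeR, Anln −0.26 and Pttg1 −0.28 without mitochondrial and ribosomal RNA, and Pttg1 −0.013 with library totals. Apart from the settings that leave out libraries, the cause of these moves was not tested. The labels give shared replicate numbers and do not say what these mark. Over genes, the difference between the WT replicates correlated with that between the Msx2-KO replicates at −0.044 in HFSCs and −0.023 in EpdSCs. With 2 libraries per group, this cannot tell whether the numbers mark a shared litter, day or batch. With 14 of 50 members at 3 counts or fewer in WT HFSC replicate 2, depth limits the HFSC folds.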
